A study of Mus musculus with 12 samples.

Results

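The transcripts described here come from 10 genes that sit at the meeting point of mitochondrial removal and mitochondrial cell death. They were chosen by name for their roles, as 3 receptors for the removal of mitochondria in low oxygen (*Bnip3*, *Bnip3l*, *Fundc1*), 3 guardians of the BCL2 family (*Bcl2*, *Bcl2l1*, *Mcl1*), 3 death-promoting BH3-only genes (*Bcl2l11*, *Pmaip1*, *Bbc3*) and 1 pore-forming effector (*Bax*). All 10 were found by name among the 45706 genes listed, each in 1 row, and all 10 were among the 18909 genes that passed the filter on low values.

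Mitophagy is the selective delivery of mitochondria to the autophagosome. BNIP3, BNIP3L (also called NIX) and FUNDC1 are outer membrane receptors that bind the LC3 and GABARAP proteins of the forming autophagosome, and the first pair are well known targets of the hypoxia-inducible factors. The BCL2 family decides whether the same membrane is opened to release cytochrome c. BCL2, BCL-XL (the product of *Bcl2l1*) and MCL1 hold it closed, BAX and BAK form the pore, and BH3-only proteins such as BIM (*Bcl2l11*), NOXA (*Pmaip1*) and PUMA (*Bbc3*) bind the guardians or activate the effectors. *Pmaip1* and *Bbc3* are known p53 target genes, and fetal and adult hepatocytes depend on BCL-XL and MCL1 for survival.

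RNA was sequenced from BN1 cells, an immortalized line grown from a murine hepatoblastoma (HB), a liver tumor of early childhood in humans. The tumor was driven by the β-catenin mutant (B) and the NRF2 mutant (N), with Crispr targeting of *Cdkn2a* (labelled as a *Cdkn2a* KO), and all 4 groups share that background and a reporter in which the Tie2/Tek promoter drives EGFP. UN cells were unsorted and kept in normoxia (21% oxygen), and UH cells were unsorted and exposed to 1% oxygen for 2 days. SN cells were EGFP+ cells collected by flow sorting after 2 days of hypoxia and then expanded for about 10 days at normal oxygen, and the SH group is that population returned to 1% oxygen for 2 days. Each group has 3 libraries. The sorted groups descend from 1 line and 1 reporter, so sorting, the earlier exposure to hypoxia and the days of regrowth cannot be told apart in SN and SH cells. The study describes the 3 replicas of each group as independent and does not say whether they were separate cultures, so p-values measure only the spread between these libraries, part of which may be technical.

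Levels are TPM, which are divided by transcript length and sum to 1000000 in each library, so that genes can be compared with each other on this scale. TPM keep no record of sequencing depth, which is therefore unknown. Fold changes are on the scale of log2(TPM + 1) and understate changes of genes with low TPM. A gene was called higher or lower, or is said to have risen or fallen, at a limma adjusted p below 0.05 over all genes tested and an absolute log2 fold change above 1.

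The libraries carried the signature of their oxygen label. In UH vs UN cells, 7 of 8 hypoxia genes chosen as a check rose (*Vegfa*, *Slc2a1*, *Pdk1*, *Egln3*, *Ankrd37*, *Ndrg1* and *Adm*), and the same 7 rose in SH vs SN cells. *Car9*, which encodes a carbonic anhydrase, was not called, at 0.32 TPM in UN, 1.22 in UH, 0 in SN and 0.0366 in SH cells. The UN mean of *Car9* came from UN1 alone (0.961 TPM, with 0 in UN2 and UN3). *Adm* had 22.2 TPM in UN1, against 1.45 and 1.22 in UN2 and UN3 and 8.43 in SH3. *Slc2a1* was also highest in UN1 among the UN libraries, whereas *Egln3*, *Ndrg1* and *Pdk1* were lowest there. *Tek*, the gene whose promoter drives the reporter, had a mean of 0.133 TPM in UN and 0.156 in UH cells, and of 2.49 in SN and 3.04 in SH cells.

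Liver markers were uneven in these cells. Of 8 hepatocyte or hepatoblast genes, 5 had a mean of at least 1 TPM, and the most abundant was *Krt18*. *Ttr* was at or near 0, *Apoa1* did not exceed a group mean of 0.38 TPM, and *Alb* had a mean of 2.51 TPM in UN and 0.212 in SN cells. *Afp*, the alpha-fetoprotein gene of hepatoblasts, had 1.83 TPM in UN, 1.22 in UH, 9.2 in SN and 5.07 in SH cells, and sorted cells had more of it both in normoxia (log2 fold change 1.86, called) and in hypoxia (adjusted p = 0.000414, called). Others went the opposite way, with *Krt8* lower in sorted cells both in normoxia (−3.43) and in hypoxia (−1.73), and *Hnf4a* (−1.86) and *Alb* (−1.56) lower in SN vs UN cells. *Krt8* was higher in SH vs SN (1.02) and *Hnf4a* lower in UH vs UN cells (−1.97). Of 6 endothelial genes only *Tek* reached a mean of 1 TPM, while *Pecam1*, *Cdh5*, *Kdr*, *Erg* and *Emcn* stayed near 0. Of 4 leukocyte genes only *Cd68* was tested, with *Ptprc*, *Adgre1* and *Cd3e* at or near 0. *Cd68* had 3.09 TPM in UN, 13.4 in UH, 7.88 in SN and 53.9 in SH cells and rose in each of the 4 comparisons between groups. The red cell gene *Hba-a1* had 0.102, 0.292, 1.28 and 11 TPM in the same order and rose in SH vs SN (2.39) and SH vs UH cells (3.20), and its responses differed (2.22). The other red cell gene, *Hbb-bs*, was highest in SN cells, at 0.348, 0.249, 1.99 and 0.806 TPM in that order, and was not called.

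The summed TPM of 5 fibroblast or stellate genes was 2006, 843 and 760.0 in the UN libraries, 3224, 4613 and 4098 in UH, 52, 49.5 and 59.7 in SN and 42.3, 43.1 and 28.5 in SH. The most abundant gene of the sum was *Col1a1* in UN, UH and SH cells and *Pdgfrb* in SN cells. The genes of the sum did not move together. *Col1a1* and *Col1a2* rose (2.25 and 1.92) and *Pdgfra* and *Pdgfrb* fell (−2.24 and −1.37) in UH vs UN cells. *Col1a1*, *Col1a2* and *Pdgfra* fell in SN vs UN cells, while *Pdgfrb* had 44.7 TPM in UN and 43.8 in SN cells. *Des* (2.01) and *Col1a1* (1.57) rose and *Pdgfrb* fell (−2.66) in SH vs SN cells. In SH vs UH cells *Des* rose (1.03 to 8.89 TPM) while the other 4 fell. The markers thus moved with oxygen as well as with sorting, and their part in the differences given below was not tested. In RNA from whole cultures, fewer cells of a type and less RNA per cell cannot be told apart.

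Other features of the libraries also moved with the groups. Mitochondrially encoded transcripts held 6.1 ± 1.27% of all TPM in UN cells, 2.11 ± 0.433% in UH, 8.1 ± 0.397% in SN and 3.43 ± 1.1% in SH (means, n = 3), so the share was lower in both hypoxic groups. The number of genes above 0 was 21666 to 22369 in the SH libraries and 18901 to 20251 in the others. UN1 correlated less with its own group than UN2 and UN3 did (mean r of 0.978 against 0.984 for both, across genes, which are not independent replicates). It also stood apart from them in *Bcl2*, *Pmaip1*, *Bax* and *Mcl1*, and values of these genes without it are given where they differ most. Among genes of the lists, *Cdkn1a* (86.5 TPM against 32.6 and 36.6 in UN2 and UN3) and *Eda2r* (10.9 against 3.09 and 3.96) were higher in UN1. *Perp* (8.48 against 14.2 and 13.9) and *Fas* (60.8 against 77.5 and 81.5) were lower there, and the comparisons of the lists include UN1.

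Hypoxia in unsorted cells was marked by 2 of the 3 mitophagy receptors. *Bnip3* rose 16.3-fold and *Bnip3l* rose 6.01-fold by mean TPM, *Bcl2l1* fell to about 0.496 of its UN level, and the BH3-only genes and *Bax* were not called. Of the 10 genes, 2 were called higher, against 5.46% of all genes tested, and 1 was called lower, against 11.8%. At the adjusted p alone, whatever the fold, 5 of the 10 passed, which is near the 46.4% of all genes. All genes together had a median log2 fold change of −0.19 in this comparison and 0 after median-of-ratios scaling, which also turned the balance of all called genes from 1032 higher and 2222 lower to 1566 higher and 1221 lower. With that scaling *Bnip3* and *Bnip3l* stood at 4.36 and 2.92, and *Bcl2l1* at −0.65 (adjusted p = 0.00462), inside the fold threshold.

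In sorted cells hypoxia raised the same receptors and, in addition, *Pmaip1* and *Bbc3*. The count was 4 higher (background 7.47%) and 0 lower (background 5.0%). With limma, 5 of the 10 had a positive and 2 a negative change at an unadjusted p below 0.05, and 6 passed the adjusted p at any fold, against 41.0% of all genes. All genes together had a median log2 fold change of 0.03, so no comparable shift was present.

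**Figure D1:**
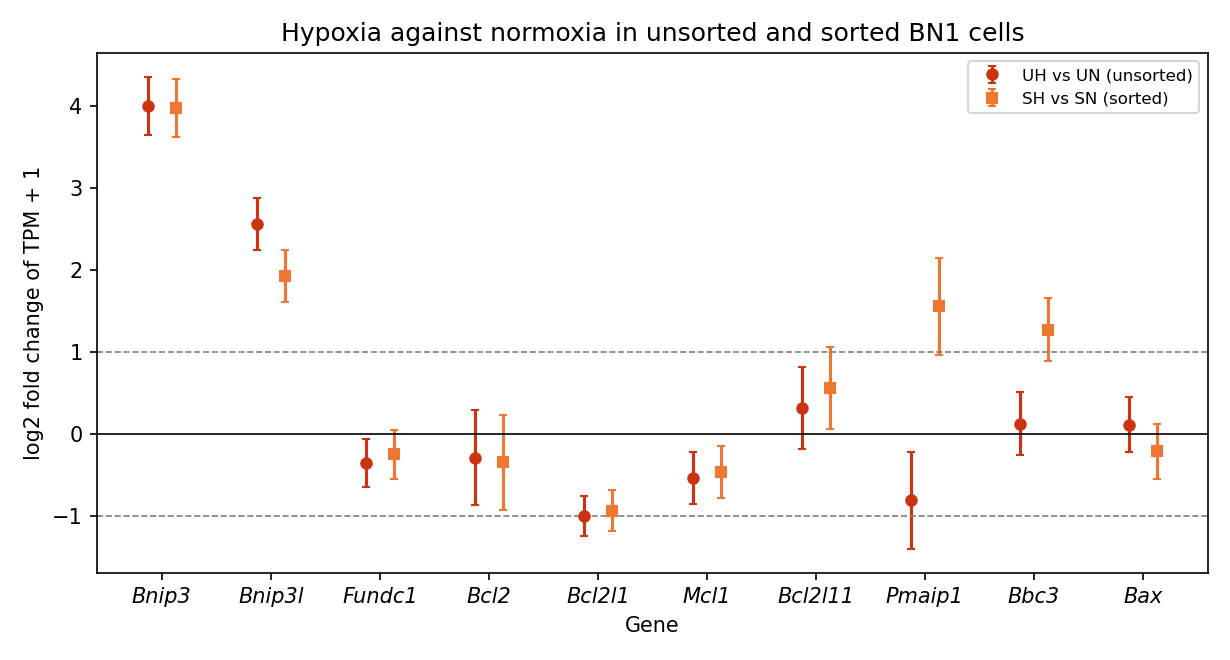
Log2 fold change of TPM + 1 between hypoxic and normoxic cells for each of the 10 genes, in unsorted cells (circles, UH vs UN) and sorted cells (squares, SH vs SN). Bars are 95% confidence intervals from limma, with 3 libraries in each group, and dashed lines mark the fold threshold of 1. *Bnip3* lies near 4 in both comparisons, while *Pmaip1* lies at −0.81 in unsorted and 1.56 in sorted cells.

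*Bnip3* had 43.3, 57.2 and 58.1 TPM in the UN libraries and 825, 808 and 951 in the UH libraries. It had 50.5, 49.9 and 72.4 TPM in SN and 931, 1007 and 802 in SH. Every hypoxic library therefore lay far above every normoxic library, and the hypoxic groups overlapped each other, as did the normoxic groups. The log2 fold change was 4.01 ± 0.16 (SE, adjusted p = 1.6e-08) in UH vs UN and 3.98 ± 0.16 (SE, adjusted p = 2.77e-08) in SH vs SN cells, with 3 of 3 hypoxic libraries higher in each. The difference between these responses, (SH − SN) − (UH − UN), was −0.03 (95% CI −0.53 to 0.47, adjusted p = 0.938).

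*Bnip3l* started from a higher normoxic level than *Bnip3*, with 139, 143 and 144 TPM in UN and 117, 102 and 121 in SN libraries. In hypoxia it had 721, 834 and 1002 TPM in UH and 483, 481 and 350.1 in SH libraries. The 4 groups did not overlap, and the order from the highest was UH, SH, UN and SN. The rise was 2.57 ± 0.14 (SE, adjusted p = 1.43e-07) in unsorted and 1.93 ± 0.14 (SE, adjusted p = 2.08e-06) in sorted cells. The test of the difference between the responses gave −0.64 ± 0.20 (SE, adjusted p = 0.0447), a smaller response in sorted cells that passed the adjusted p but not the fold threshold. Over 18 alternatives this value was −0.981 to −0.484. Its adjusted p lay between 0.00132 and 0.0985 and missed 0.05 in 12 of them. In SH vs UH cells the log2 fold change was −0.96 ± 0.14 (SE, adjusted p = 0.000274), which passed the fold threshold after median-of-ratios scaling (−1.19) and without UH1 (−1.08), SH1 (−1.04) or SH2 (−1.04).

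The balance between these related receptors thus differed by group. The ratio of *Bnip3* to *Bnip3l* TPM was 0.311, 0.401 and 0.404 in the UN libraries and 0.431, 0.489 and 0.599 in SN. It was 1.14, 0.969 and 0.95 in UH and 1.93, 2.09 and 2.29 in SH. The groups did not overlap in this ratio, so that *Bnip3l* was the more abundant receptor in normoxia, both were about level in UH cells, and *Bnip3* exceeded it in SH cells.

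*Fundc1*, the receptor regulated mainly by phosphorylation, stayed within a narrow band of 19.8 to 31.7 TPM over the 12 libraries. Its log2 fold change was −0.35 ± 0.14 (SE, adjusted p = 0.0513) in UH vs UN and −0.24 ± 0.14 (SE, adjusted p = 0.177) in SH vs SN cells, and it was not called in any comparison. After median-of-ratios scaling the UH vs UN value was −0.01 (adjusted p = 0.981).

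*Bnip3* and *Bnip3l* have near-identical copies in the genome, and reads can be split between a gene and its copies. Transcripts of the members were aligned to all annotated transcripts, and matches of at least 88% identity over at least 200 bases were kept. For *Bnip3*, the most abundant copy in the table was the pseudogene *Gm16439* (98.9% identity over 564 bases), with 0.148 to 10.8 TPM, and *Gm9419* and *Gm14506* did not exceed 0.571 TPM. For *Bnip3l*, *Bnip3l-ps* (99.2% over 663 bases) had 0.345 to 2.65 TPM. These levels are small beside those of the receptors themselves, and both copies were higher in the hypoxic than in the normoxic libraries. *Bcl2* overlaps the antisense gene *D630008O14Rik*, which did not exceed 0.0524 TPM, and the libraries were made with a stranded kit. *Gm45808* overlaps *Bax* on the same strand, and *Gm45507* and *Gm18258* overlap *Bnip3* on the other strand. None of these, nor the *Bnip3* copies *AC160336.1* (98.3% over 858 bases) and *Gm6532* (98.6% over 559 bases), was found in the table, so reads shared with them cannot be told apart.

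**Figure D2:**
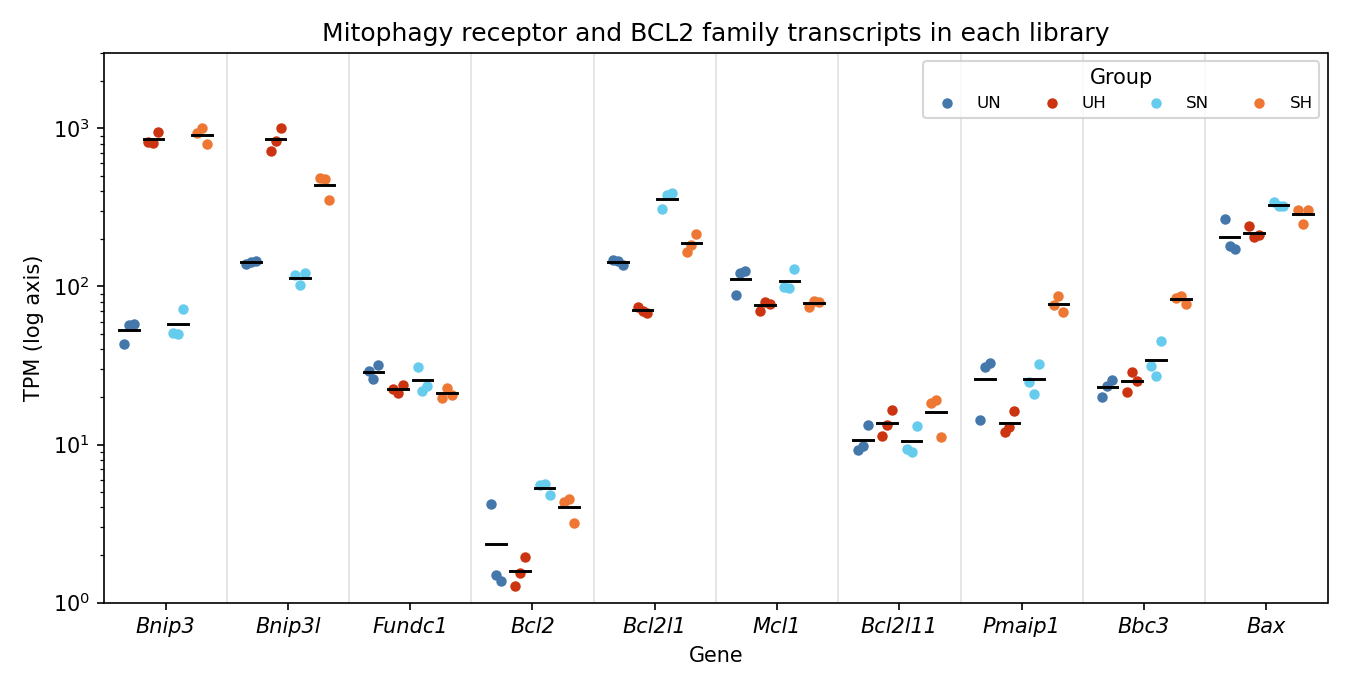
TPM of the 10 genes in each of the 12 libraries, on a log axis. Points are libraries colored by group (UN, UH, SN, SH) and black lines are means of 3 libraries. *Bnip3* and *Bnip3l* are at or above 350.1 TPM in every hypoxic library and at or below 144 TPM in every normoxic library, and *Pmaip1* and *Bbc3* stand apart in SH.

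Among the guardians, *Bcl2l1* followed both oxygen and sorting. It had 146, 146 and 138 TPM in UN, 74.3, 70.4 and 68.4 in UH, 311, 378 and 388 in SN and 165, 184 and 215 in SH libraries. No library of one group reached the range of another, and the order from the highest was SN, SH, UN and UH. In UH vs UN cells it fell by 1.00 on the log2 scale (SE 0.11, adjusted p = 2.29e-05), with 3 of 3 UH libraries lower. That call lay at the edge of the fold threshold and was lost without UN1 (−0.985), UN2 (−0.988), UH2 (−0.994) or UH3 (−0.974). In SH vs SN cells the value was −0.93 ± 0.11 (SE, adjusted p = 6.02e-05), just inside the threshold, and it passed without SN1 (−1.03), without SH3 (−1.03) and after rescaling without the mitochondrially encoded genes (−1.003). The responses differed by 0.07 (95% CI −0.28 to 0.42, adjusted p = 0.782), a value that turned to −0.27 after median-of-ratios scaling.

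*Bcl2*, the founding member of the family, was the least abundant of the 10 in every group. It had 4.19, 1.49 and 1.37 TPM in UN, 1.28, 1.54 and 1.93 in UH, 5.53, 5.62 and 4.78 in SN and 4.35, 4.5 and 3.17 in SH libraries. UN1 was close to the sorted libraries and the other UN libraries were close to UH. Hypoxia gave −0.28 ± 0.27 (SE, adjusted p = 0.418) in unsorted cells, a value of 0.08 without UN1, and −0.34 ± 0.27 (SE, adjusted p = 0.34) in sorted cells.

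*Mcl1*, whose protein turns over rapidly, had 70.2 to 129.6 TPM over all libraries. In UH vs UN cells the log2 fold change was −0.53 ± 0.14 (SE, adjusted p = 0.00952), and after median-of-ratios scaling it was −0.18 (adjusted p = 0.304). Without UN1 it was −0.69 (adjusted p = 0.000918). In SH vs SN cells it was −0.46 ± 0.14 (SE, adjusted p = 0.0238). All 3 hypoxic libraries were lower than all normoxic libraries in both comparisons, but neither change reached the fold threshold.

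Of the 3 BH3-only genes, *Pmaip1* and *Bbc3* separated sorted from unsorted cells in hypoxia. *Pmaip1* had 14.3, 31.1 and 32.9 TPM in UN, 12, 12.9 and 16.3 in UH, 25, 20.8 and 32.1 in SN and 76.8, 87.6 and 68.6 in SH libraries. All SH libraries lay above all others, and UN1 lay within the UH range. In sorted cells *Pmaip1* rose by 1.56 ± 0.27 (SE, adjusted p = 0.000746). In unsorted cells it had a negative value of −0.81 ± 0.27 (SE, adjusted p = 0.0287), which passed the fold threshold without UN1 (−1.18, adjusted p = 0.000409) and was −0.47 after median-of-ratios scaling (adjusted p = 0.136). The difference between the responses was 2.37 ± 0.38 (SE, adjusted p = 0.00164), and it was 2.04 to 2.74 over 18 alternatives, with adjusted p from 4.48e-05 to 0.00678.

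*Bbc3* showed a like arrangement without the low UH values. It had 19.9, 23.4 and 25.5 TPM in UN and 21.5, 28.9 and 25.3 in UH libraries, which overlapped. It had 31.2, 27.1 and 45.2 TPM in SN and 84, 87.6 and 77.3 in SH libraries, and every SH library was above every other library. In sorted cells it rose by 1.27 ± 0.17 (SE, adjusted p = 0.000149), whereas the value in unsorted cells was 0.13 ± 0.17 (SE, adjusted p = 0.594). With median-of-ratios scaling the latter was 0.47 (adjusted p = 0.0291), inside the fold threshold. The difference between the responses was 1.15 ± 0.25 (SE, adjusted p = 0.00764). That difference fell inside the fold threshold after median-of-ratios scaling (0.81, adjusted p = 0.0228) and without SN2 (0.99, adjusted p = 0.021), with adjusted p from 0.00211 to 0.0237 over 18 alternatives. The SH libraries were also those with the most genes above 0 and the highest *Cd68* and *Hba-a1* (but not *Hbb-bs*), the fibroblast or stellate genes named above also moved in SH vs SN cells, and the part of this in the *Pmaip1* and *Bbc3* results was not tested.

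*Bcl2l11*, which encodes BIM, ranged over 8.99 to 19.1 TPM in the 12 libraries, with overlap in each comparison. Its log2 fold change was 0.32 ± 0.23 (SE, adjusted p = 0.278) in UH vs UN and 0.56 ± 0.23 (SE, adjusted p = 0.0685) in SH vs SN cells. After median-of-ratios scaling these were 0.65 (adjusted p = 0.0149) and 0.57 (adjusted p = 0.0282), past the adjusted p but not the fold threshold. In SH vs UH cells it was 0.21 ± 0.23 (SE, adjusted p = 0.494). SH3, at 11.1 TPM, lay below SH1 and SH2, at 18.2 and 19.1 TPM.

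When the response of unsorted cells was subtracted from that of sorted cells, 2 of the 10 were called higher (background 8.08%) and 0 lower (background 2.18%). With limma, 2 were positive and 1 negative at an unadjusted p below 0.05, and 3 passed the adjusted p at any fold, against 22.0% of all genes. The median over all genes was 0.25 and became 0.02 after median-of-ratios scaling, with 903 higher and 783 lower genes in place of 1527 and 412. This test and the 4 comparisons between groups use the same 12 libraries and share groups, so their values stand side by side and are not independent of each other.

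*Bax* was abundant in every group, at 172 to 342 TPM. It had 266, 179 and 172 TPM in UN and 241, 205 and 212 in UH libraries, and UN1 was the highest of these 6. It had 342, 323 and 322 TPM in SN and 306, 248 and 303 in SH libraries. Hypoxia gave 0.12 ± 0.15 (SE, adjusted p = 0.565) in unsorted and −0.21 ± 0.15 (SE, adjusted p = 0.309) in sorted cells, neither of which passed. Without UN1 the value in unsorted cells was 0.32 (adjusted p = 0.0327), which passed the adjusted p but not the fold threshold. The difference between the responses was −0.33 ± 0.22 (SE, adjusted p = 0.297), and −0.53 without UN1 (adjusted p = 0.0199).

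Sorted and unsorted cells also differed in normoxia, above all in *Bcl2l1*. In SN vs UN cells *Bcl2l1* rose 2.51-fold by mean TPM (1.32 ± 0.11 SE, adjusted p = 5.2e-06) and *Bcl2* rose 2.26-fold (1.01 ± 0.27 SE, adjusted p = 0.0119), with 3 of 3 SN libraries above all UN libraries for both. The count was 2 higher (background 3.20%) and 0 lower (background 7.57%). With limma, 4 of the 10 were positive and 1 negative at an unadjusted p below 0.05, and 4 passed the adjusted p at any fold, against 33.9% of all genes. *Bax* (0.70 ± 0.15 SE, adjusted p = 0.00406) and *Bbc3* (0.54 ± 0.17 SE, adjusted p = 0.0324) were the other 2, below the fold threshold, and *Bax* was at 0.90 without UN1. *Pmaip1*, at 0.06 ± 0.27 (SE, adjusted p = 0.908), was at −0.31 without UN1. The remaining guardian, *Mcl1*, was at −0.03 ± 0.14 (SE, adjusted p = 0.918). The *Bcl2* call was lost without UN2 (0.845, adjusted p = 0.0556), UN3 (0.81, adjusted p = 0.0564), SN1 (0.983) or SN2 (0.974) and in a fit of these groups alone (adjusted p = 0.0651), whereas without UN1 the value was 1.38 (adjusted p = 0.000113).

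In hypoxia, 3 genes of the 10 were called between sorted and unsorted cells. In SH vs UH cells *Bcl2l1* rose 2.65-fold (1.38 ± 0.11 SE, adjusted p = 2.62e-06), *Pmaip1* rose 5.67-fold (2.42 ± 0.27 SE, adjusted p = 3.14e-05) and *Bbc3* rose 3.29-fold (1.69 ± 0.17 SE, adjusted p = 1.78e-05), each in 3 of 3 libraries. Thus a guardian and a pair of BH3-only genes were higher together. The count of 3 higher stands against 7.65% of all genes, and that of 0 lower against 5.35%. With limma, 5 were positive and 1 negative at an unadjusted p below 0.05, and 5 passed the adjusted p at any fold, against 41.7% of all genes. *Bcl2* was at 0.95 ± 0.27 (SE, adjusted p = 0.0133), and it passed the fold threshold with a pseudocount of 0.1 (1.29) and without UH3 (1.05) or SH3 (1.08). *Bnip3l*, lower in sorted cells at −0.96 ± 0.14 (SE, adjusted p = 0.000274), was the other gene that passed the adjusted p but not the fold threshold. The median over all genes was 0.17 (0.03 after median-of-ratios scaling, with 1022 higher and 1326 lower genes in place of 1447 and 1012), and the called genes of the 10 had log2 fold changes of 1.16, 2.21 and 1.47 with that scaling. The summed fibroblast or stellate markers, carried by *Col1a1* and *Col1a2*, were far lower in every SH than in every UH library, whereas *Des*, *Cd68* and *Hba-a1* were higher, and the part of these markers in the differences was not tested.

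Within a group, the order of levels showed which transcripts dominated. In UN cells *Bax* led at a mean of 205 TPM, above *Bcl2l1* and *Bnip3l*, which overlapped. In UH cells *Bnip3* (862) and *Bnip3l* (852) led and overlapped, followed by *Bax* and then by *Mcl1* and *Bcl2l1*, which overlapped. In SN cells *Bcl2l1* (359) and *Bax* (329) led and overlapped. In SH cells *Bnip3* (913) led, with *Bnip3l*, *Bax* and *Bcl2l1* below it in that order and without overlap between neighbors. *Bbc3*, *Mcl1* and *Pmaip1* followed, each overlapping the next. *Bcl2l11* and *Bcl2* were the lowest in all 4 groups, apart from overlap of *Bcl2l11* with *Pmaip1* in UH cells.

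Of 13 further mitophagy receptors and regulators, all tested, 2 fell (11.8% of all genes) and 0 rose (5.46% of all genes) in UH vs UN cells, a share near that of all genes. Those that fell were *Nipsnap1*, a matrix protein that can mark damaged mitochondria (28.1 to 10.003 TPM), and *Pgam5*, a mitochondrial phosphatase that acts on FUNDC1 (35.4 to 15.8 TPM). With limma, 1 of the 13 was positive and 8 were negative at an unadjusted p below 0.05. At any fold 7 passed the adjusted p, against 46.4% of all genes. The list's median log2 fold change was −0.37, against −0.19 for all genes. In SH vs SN cells 0 of the 13 were called with limma (7.47% of all genes higher, 5.0% lower), with 1 positive and 3 negative at an unadjusted p below 0.05 and a median of 0.03. SN vs UN and SH vs UH cells and the difference between the responses also gave 0 calls, with 1, 3 and 6 positive and 5, 0 and 0 negative genes at that level. The shares of all genes there were 3.20%, 7.65% and 8.08% higher and 7.57%, 5.35% and 2.18% lower. *Pink1*, the kinase of the other main mitophagy route, had means of 20.9, 28.6, 13.4 and 24.1 TPM in UN, UH, SN and SH cells. *Pink1*, and below *Map1lc3b*, *Gabarap*, *Bak1* and *Trp53* in UH vs UN and SH vs SN cells, passed no call and are named after their values were seen.

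Of 32 core autophagy and adaptor genes, 1 rose in UH vs UN cells, *Rb1cc1*, a subunit of the ULK kinase complex (1.25, adjusted p = 6.3e-05). In SH vs SN cells 1 rose as well, *Atg10* (1.36, adjusted p = 6.47e-05), an enzyme of the ATG12 conjugation step. Over all genes 5.46% and 7.47% were called higher and 11.8% and 5.0% lower in these comparisons. No gene of this list fell in either comparison, although 12 and 7 were positive and 5 and 3 negative at an unadjusted p below 0.05 with limma. The medians were 0.05 and 0.10. *Map1lc3b* and *Gabarap*, which encode partners of the receptors, had 124 and 249 TPM in UN and 193 and 382 in UH cells. They had 149.5 and 242 TPM in SN and 143 and 234 in SH cells, and were called in neither comparison. In SN vs UN and SH vs UH cells 0 of the 32 were called (3.20% and 7.65% of all genes higher, 7.57% and 5.35% lower), with 10 and 9 positive and 5 and 7 negative at an unadjusted p below 0.05. Of 8 genes for mitochondrial fission and fusion, 0 were called in any comparison between 2 groups, with 0, 0, 2 and 5 positive and 6, 4, 3 and 1 negative at an unadjusted p below 0.05 in UH vs UN, SH vs SN, SN vs UN and SH vs UH. Of all genes 5.46%, 7.47%, 3.20% and 7.65% were called higher and 11.8%, 5.0%, 7.57% and 5.35% lower in that order. *Mfn1*, a fusion gene, differed between the responses (1.13, adjusted p = 0.028), the 1 call of the 8 in that test, against 8.08% of all genes higher and 2.18% lower.

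Of 12 other BCL2 family genes listed, 7 were tested, and *Bcl2l10*, *Bcl2a1a*, *Bcl2a1b*, *Bcl2a1d* and *Hrk* were at or near 0. In UH vs UN cells the guardian *Bcl2l2* rose (17.1 to 40.1 TPM) and the BH3-only genes *Bid* (35.7 to 12.5 TPM) and *Bmf* (17 to 6.09 TPM) fell, so 1 of 7 rose and 2 fell, against 5.46% and 11.8% of all genes. *Bid* also fell in SH vs SN cells (56.8 to 17.3 TPM), the 1 call there, against 7.47% of all genes higher and 5.0% lower. *Bak1*, the effector paired with *Bax*, had 153 and 76.8 TPM in UN and UH and 169 and 89 in SN and SH cells, with log2 fold changes of −0.97 and −0.91 just inside the fold threshold. In sorted cells *Bok*, a further effector, fell in normoxia (−2.87) and in hypoxia (−2.46), and the BH3-only gene *Bik* rose (1.44 and 1.13). *Bmf* fell in SN vs UN cells and *Bcl2l2* in SH vs UH cells. Thus 1 of 7 rose and 2 fell in each, against 3.20% and 7.57% of all genes in SN vs UN and 7.65% and 5.35% in SH vs UH. The *Bcl2l2* call in SH vs UH cells lay at the edge of the fold threshold. It had 32, 44.8 and 43.4 TPM in UH and 21.4, 21.8 and 15.4 in SH libraries.

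Downstream of the membrane, 3 of 20 apoptosis genes rose and 6 fell in UH vs UN cells, against 5.46% and 11.8% of all genes and with a list median of −0.38. The caspase gene *Casp6*, the nuclease gene *Endog* and the channel gene *Vdac1* rose. Those that fell included *Birc5* (208 to 48.6 TPM), *Htra2* (64.7 to 18.3) and *Cycs*, which encodes cytochrome c (192 to 64.8). *Birc5* encodes survivin, an inhibitor of apoptosis that also serves cell division. In SH vs SN cells 4 rose (*Casp6*, *Endog*, *Dffb*, *Vdac1*) and 3 fell, among them *Htra2* and *Aifm1*, with a median of −0.23, against 7.47% and 5.0% of all genes. In SN vs UN cells *Endog* alone fell (−1.21), while 5 genes rose in SH vs UH cells, among them *Dffb*, *Birc5*, *Cycs* and *Birc3*, and *Endog* fell. Of all genes, 3.20% and 7.57% were called higher and lower in the former comparison and 7.65% and 5.35% in the latter. For the difference between the responses 3 of the 20 were called higher, among them *Dffb* (1.77) and *Birc5* (1.39), and 0 lower. The shares of all genes in that test were 8.08% and 2.18%.

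Because *Pmaip1* and *Bbc3* are p53 targets, p53 and 12 other targets were set beside them. In SH vs SN cells 5 of the 13 rose (*Perp* 2.42, *Sesn2* 2.04, *Cdkn1a* 1.85, *Trp53inp1* 1.53 and *Mdm2* 1.37) and 0 fell, although with limma 8 were positive and 2 negative at an unadjusted p below 0.05. The list's median was 0.79, against 0.03 for all genes. Over all genes 7.47% were called higher there and 5.0% lower. In UH vs UN cells 2 rose (*Cdkn1a* 3.52 and *Sesn2* 1.56) and 2 fell (*Fas* −1.19 and *Aen* −1.02), with a median of −0.24, against 5.46% and 11.8% of all genes. *Trp53* itself had 162, 85.9, 351 and 179 TPM in UN, UH, SN and SH cells, with log2 fold changes of −0.90 and −0.98 in hypoxia, inside the fold threshold. In SN vs UN cells 5 rose (*Cdkn1a*, *Eda2r*, *Mdm2*, *Trp53* and *Aen*) and *Perp* fell, and in SH vs UH cells 7 rose, led by *Aen* (2.06), *Trp53inp1* (1.96), *Eda2r* (1.94) and *Ccng1* (1.71). *Trp53* itself was among these 7, at 85.9 TPM in UH and 179 in SH cells. The shares of all genes called higher and lower were 3.20% and 7.57% for SN vs UN, then 7.65% and 5.35% for SH vs UH. For the difference between the responses the shares of all genes were 8.08% and 2.18%. In that test *Perp* (2.70) and *Trp53inp1* (1.78) were called higher and *Cdkn1a* (−1.66) lower, so the targets did not all share the direction of *Pmaip1* and *Bbc3*. Of the 13, 11 had a positive value there, with 6 positive and 1 negative at an unadjusted p below 0.05 with limma. The median of the list was 0.51, against 0.25 for all genes.

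The genes whose pattern was most like that of *Bnip3* over the 12 libraries, by Pearson's r of log2(TPM + 1) among 8654 genes with a mean of at least 10 TPM, were *Pfkp* (0.996), *Ero1l* (0.995), *Vegfa* (0.994), *Ppme1* (0.992) and *Selenbp1* (0.992). Those most like *Bnip3l* were *Pgm2* (0.99), *Fam117b* (0.989), *5330426P16Rik* (0.989), *Vim* (0.987) and *Lppr3* (0.987). *Pfkp* encodes a glycolytic kinase and *Vim* encodes vimentin, an intermediate filament protein. *Pfkp* had group means of 19.2, 315 and 21.1 TPM in UN, UH and SN cells and 327 in SH cells, a near copy of the *Bnip3* arrangement, whereas *Pgm2* had 42.8, 367, 30.8 and 204.0, with the lower SH level seen for *Bnip3l*. The points share 4 groups, so these values describe the arrangement of groups and carry no p.

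The members are spread over the genome (GRCm38, GENCODE M21). *Bnip3* (ENSMUSG00000078566, chr7:138890836-138909519, minus strand), *Bbc3* (ENSMUSG00000002083, chr7:16308393-16318205, plus strand) and *Bax* (ENSMUSG00000003873, chr7:45461697-45466898, minus strand) lie on the same chromosome, far from each other. *Bcl2l1* (ENSMUSG00000007659, chr2:152780668-152831728, minus strand) and *Bcl2l11* (ENSMUSG00000027381, chr2:128126038-128162547, plus strand) share another. *Bnip3l* (ENSMUSG00000022051, chr14:66985239-67008877, minus strand), *Fundc1* (ENSMUSG00000025040, chrX:17556564-17572325, minus strand), *Bcl2* (ENSMUSG00000057329, chr1:106538178-106714274, minus strand), *Mcl1* (ENSMUSG00000038612, chr3:95658788-95663176, plus strand) and *Pmaip1* (ENSMUSG00000024521, chr18:66458533-66465565, plus strand) each lie on a chromosome of their own.

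Promoter sequence is shown for the members whose windows held CACGTG, so that the same letters can be read beside different values. Windows of 250 bases before to 50 bases after the gene start (RefSeq, GRCm38.p6) were matched for 8 of the members, in 13 windows, since some genes have several starts. No window was matched for *Bnip3l*, and *Pmaip1* was left out of the search beforehand, so the promoters of these genes were not searched. Both strands were searched for ACGTG and GCGTG, the letters at the core of sites that hypoxia-inducible factors can bind. Of all 32851 promoter windows, 19.6% held ACGTG, 32.4% held GCGTG and 43.8% held either, against 8 of the 13 windows of the members. Of the 8 members, 5 held either motif in at least 1 window (*Bnip3*, *Bcl2l1*, *Bcl2l11*, *Bbc3* and *Bax*), and the windows of *Fundc1*, *Bcl2* and *Mcl1* held none.

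The *Bnip3* window held 2 matches of ACGTG, which overlap as the palindrome CACGTG on both strands, and 3 of GCGTG. The stretches below run 5′ to 3′ on the strand of the gene and end before its start, with both motifs in capitals on either strand. For *Bnip3* the stretch is at chr7:138909527-138909636 on the minus strand, upstream of the annotated gene. That of *Bbc3*, from the last of its annotated starts along the strand, is at chr7:16310331-16310430 on the plus strand, inside the annotated gene. That of *Bax* is at chr7:45466899-45466958 on the minus strand, directly upstream of the gene.
Bnip3: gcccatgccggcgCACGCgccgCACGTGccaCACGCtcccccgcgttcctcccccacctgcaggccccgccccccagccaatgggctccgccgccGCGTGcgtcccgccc
Bbc3: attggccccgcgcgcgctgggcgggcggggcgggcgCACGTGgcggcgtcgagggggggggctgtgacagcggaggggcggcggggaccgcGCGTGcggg
Bax: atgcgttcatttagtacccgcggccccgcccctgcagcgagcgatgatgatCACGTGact
*Bnip3* rose in both hypoxic comparisons, *Bbc3* in sorted cells, and *Bax* was not called in either, so windows with the same letters belong to genes with different values. A match is a description of letters and not a measured binding site.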

How the data were processed

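The deposited table holds TPM per gene that the authors made with nf-core/rnaseq 3.12.0 and Salmon for 12 libraries of stranded mRNA, with mm10 as the genome build in the submitters' notes. The annotation version is not stated. TPM are corrected for transcript length, sum to 1000000 in each library and keep no record of depth, so depth is unknown. The 10 members were matched to the table by gene name.

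Genes with a mean of at least 0.1 TPM (18909 of 45706) were tested with limma 3.58.1 in R 4.3.3, on log2(TPM + 1), with eBayes(trend) and a mean for each of UN, UH, SN and SH (3 libraries each). Calls required a p adjusted by the method of Benjamini and Hochberg below 0.05 over all genes tested and an absolute log2 fold change above 1. Comparisons were UH vs UN, SH vs SN, SN vs UN, SH vs UH and (SH − SN) − (UH − UN). The test was tested on simulated data. The genes named are the 10 members, up to 4 called genes each way from each list, the hypoxia check genes, the cell type markers and the genes most like *Bnip3* and *Bnip3l*. Genes named beyond this were chosen after their values were seen. The members and lists were chosen with earlier results of these data known.

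Alternatives were a pseudocount of 0.1, no filter, a mean of at least 1 TPM, median-of-ratios scaling, rescaling without mitochondrially encoded genes, a replicate block, fits of the groups compared alone, and leaving out each library. Near copies were sought with BLAST+ 2.17.0, gene positions come from GENCODE M21 (GRCm38) and promoter windows from RefSeq (GRCm38.p6). No library was left out.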

Additional observations from a re-analysis of the deposited data

Results flagged for a closer look

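The test of the difference between the hypoxia responses, (SH − SN) − (UH − UN), flagged 3 of the 10 genes at its limma adjusted p, against 22.0% of all genes tested, as genes whose response differed between sorted and unsorted cells. The log2 value was −0.64 for *Bnip3l* (adjusted p = 0.0447), 2.37 for *Pmaip1* (adjusted p = 0.00164) and 1.15 for *Bbc3* (adjusted p = 0.00764). For *Bnip3l* the adjusted p missed 0.05 in 12 of 18 alternatives, mostly in fits that left out a library. That flag thus depends on the libraries and the processing, while the log2 value stayed at −0.981 to −0.484 over all 18. Sorting, the earlier hypoxia and the regrowth come together in the sorted groups, the SH libraries also had the most genes above 0, and no explanation was tested.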

How the results depend on the processing

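Of the fold changes of the members under the alternatives, 643 kept their direction and side of the threshold, 11 passed it anew, 12 no longer passed and 34 turned in sign. Of the counts of called members, 63 stayed within 1.5 times and 7 moved. In SN vs UN the count was 1 with only the groups compared, and for (SH − SN) − (UH − UN) it was 1 with median-of-ratios scaling. The cause was not tested.

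With median-of-ratios scaling, values that turned were, in SN vs UN, *Mcl1* 0.093 and *Bcl2l11* 0.077; in SH vs UH, *Bnip3* −0.142, *Mcl1* −0.174 and *Bcl2l11* −0.002; and for the difference between responses, *Fundc1* −0.225, *Bcl2l1* −0.272, *Mcl1* −0.267 and *Bcl2l11* −0.079. Rescaled without mitochondrially encoded genes, *Mcl1* in SN vs UN was 0.003.

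Leaving out a library gave 1 to 2 called members in SN vs UN and 1 to 2 for the difference between responses. Ranges were −0.484 to 0.081 for *Bcl2* in UH vs UN and −0.007 to 0.087 for *Mcl1* in SH vs UH. In SN vs UN they were −0.061 to 0.203 for *Bnip3*, −0.187 to 0.064 for *Mcl1*, −0.194 to 0.111 for *Bcl2l11* and −0.313 to 0.262 for *Pmaip1*. For the difference they were −0.122 to 0.143 for *Bnip3*, −0.423 to 0.142 for *Bcl2*, −0.032 to 0.160 for *Bcl2l1* and −0.017 to 0.234 for *Mcl1*.

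Replicate numbers do not pair the libraries (correlations of −0.0631 to 0.141), and a replicate block left the member counts as they were. Depth is unknown and sets a limit that cannot be given.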
